A study of Mus musculus with 18 samples.

Results

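The 42 mitosis and spindle genes described here encode proteins that carry a cell through mitosis: the cyclin-CDK engine, the spindle checkpoint, the mitotic kinases, the kinetochore, the kinesins, the spindle itself and the machinery of cytokinesis. They were chosen by gene symbol from a named list, and all 42 were among the 23453 symbols of the count table. By role they comprised 6 genes of cyclin-CDK and the anaphase-promoting complex (APC/C), 5 of the spindle checkpoint, 5 mitotic kinases and passenger proteins, 7 of centromere and kinetochore, 7 kinesins, 7 spindle proteins, 3 of the midzone and cytokinesis, and 2 of chromosome structure. In mammalian cells most of these genes are transcribed in the G2 phase and mitosis, and Mki67 and Top2a among them are widely used as markers of proliferating cells. Their common control is known to run through the MuvB complex, which with B-Myb and FoxM1 switches them on late in the cycle and with p130 or p107 keeps them low in resting cells. MuvB contacts DNA through a short promoter element called the CHR, and NF-Y binds nearby CCAAT boxes.

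RNA was sequenced from B16F10, a melanoma line of C57BL/6 mice, infected with lentivirus that delivered an shRNA to knock down Hgs (shHrs) or, as the control, a scrambled sequence (shCTL). Hgs encodes Hrs, a subunit of the ESCRT machinery that sorts membrane proteins on endosomes. The groups were shHrs and shCTL cultures of batch 1 (2 libraries each), shHrs and shCTL cultures of batch 2 (2 each), and shHrs and shCTL tumours (5 each) grown from such cells in wild-type, immunocompetent C57BL/6 females aged 6 to 8 weeks. All groups were infected, and selected with puromycin at 2 µg/ml or with blasticidin for 5 days, and the labels name no cloning step. The labels do not say how many shRNA sequences against Hgs were used, how the batches differed, or whether replicate cultures were grown separately, so p-values in the cultures measure the spread between libraries, which may be technical. Each library came from a bulk culture or tumour, in which fewer cells of a type and less RNA per cell cannot be told apart.

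The libraries held between 17.6 M and 27.7 M counts each (M, mega), and levels are given as CPM, counts per M of a library size that was scaled by TMM. Hgs stood at 35.2 and 30.4 CPM in shHrs cultures of batch 1, against 94.99 and 113 CPM in shCTL cultures. In batch 2 it was at 44.5 and 41.2 CPM with shHrs, against 97.8 and 107 CPM with shCTL, and in tumours at 23.8, 17.1, 21.3, 29.1 and 16.1 CPM with shHrs, against 107, 97.6, 112, 109 and 95.8 CPM with shCTL. Every shHrs library thus lay below every shCTL library of its set. The log2 fold change of Hgs was -1.67 in batch 1 (adjusted p = 0.103), -1.30 in batch 2 (0.0268) and -2.28 in tumours (0.000106) by edgeR's quasi-likelihood test. All 9 melanoma markers were detected in each group. Of 11 T and NK cell markers 2 to 3 had a count in each group of cultures, and of 11 macrophage markers 4 to 7. In the 8 cultures the T cell gene Lck was at 0.386 to 5.83 CPM and the macrophage gene Cd68 at 1.67 to 28.8 CPM. The T cell genes Cd3d and Cd3g and the macrophage gene Tyrobp were among those with 0 counts in all cultures. Among the tumours, shHrs 4 had the highest summed T and NK cell markers (41.2 CPM, against 4.04 to 14.8 CPM in the other 9), macrophage markers (1024 CPM, against 39.1 to 592 CPM) and skeletal muscle markers (759.9 CPM, against 5.27 to 317 CPM). The shCTL 5 tumour had the highest fibroblast markers, at 3155 CPM, against 266 to 1925 CPM in the other 9. As groups, shHrs tumours had a median muscle sum of 264 CPM, against 23.1 CPM with shCTL. Their median sum of erythroid (red cell) markers was 4.29 CPM, against 48.8 CPM with shCTL. These sums were not tested between the groups.

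The clearest difference lay in the cultures of batch 2, where the mitosis and spindle genes were lower with shHrs. Of the 42 genes, 27 fell and 0 rose by edgeR's quasi-likelihood test at an adjusted p under 0.05 over all 12897 genes tested, of which 2.43% fell and 1.6% rose. DESeq2 called 40 members lower and limma voom 26, against 1020 and 369 of all genes tested. Neither called any member higher, against 968 and 276 genes. At an unadjusted p under 0.05 0 members were higher, where 27.9% of all genes tested had such a p in either direction with edgeR. The median log2 fold change, shHrs over shCTL, was -2.30 over the members and -0.05 over all genes tested, and single members ran from -3.41 for Aspm to 0.01 for Bub3. In 41 of the 42 genes both shHrs cultures lay below both shCTL cultures, and Bub3 was the exception. Such separation of 2 libraries from 2, in the lower direction, was seen in 34.7% of all genes tested. Replicate 1 alone was below both controls in 42.4% and replicate 2 alone in 43.7% of all genes tested, and each in the same 41 members. Replicate 2 was above both controls in Bub3 alone, against 44.3% of all genes tested in that direction. Summed over the 42 genes the shHrs cultures held 1222 and 1046 CPM, against 5101 and 3222 CPM in shCTL cultures. The shCTL cultures also differed from each other, with replicate 1 above replicate 2 in 42 of 42 genes and by a median of 0.62 on the log2 scale. Leaving out a culture leaves its group with 1 library, which edgeR's fit then takes to vary like the other groups, here and in the later results without a culture. Without any 1 of the 4 libraries of batch 2 the count of members that fell was 0, as was the count over all genes tested. Over all runs with a library left out or another setting, the median log2 fold change of the members in batch 2 ran from -2.58 to -1.94.

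The same genes in batch 1 did not pass. With edgeR 0 of 42 fell or rose, against 0% of the 12897 genes tested in either direction. An unadjusted p under 0.05 was found for 0 members, against 9.38% of those genes. DESeq2 and limma voom also called 0 members, where DESeq2 called 181 genes lower and 39 higher and limma voom 0. The median log2 fold change was -0.36, against 0.01 over all genes tested, with 38 members below 0 and 4 above, from -0.80 for Ccnb2 to 0.28 for Ndc80. Both batches were also fitted together, with batch as a term. There 0 of 42 members and 0% of the 12617 genes tested passed in either direction with edgeR. All 42 log2 fold changes were nevertheless below 0, with a median of -1.31, against -0.02 over all genes tested. In edgeR 36 members had an unadjusted p under 0.05, against 13.3% of all genes tested. The lowest adjusted p among the members was 0.297 with edgeR. DESeq2 called 7 members lower in that fit and limma voom 0, against 191 and 4 of all genes tested.

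In tumours the levels of the groups overlapped in all 42 genes, while 2.28% of the 13215 genes tested had all shHrs tumours below all shCTL tumours and 1.99% had them all above. Of the 42 members 0 passed in either direction with edgeR, against 0.31% of those genes in the lower and 0.235% in the higher direction. An unadjusted p under 0.05 was found for 0 members, against 14.1% of those genes. DESeq2 and limma voom called 0 members too, against 266 and 45 genes lower and 283 and 33 higher. The median log2 fold change was -0.02, against 0.01 over all genes tested, and the members ran from -0.20 for Bub1 to 0.21 for Kif20b, with 26 below 0 and 16 above. With library totals in place of TMM that split was 20 below and 22 above. Approximate 95% intervals were drawn from the standard errors with a normal distribution, which with few tumours makes them narrower than the test's own. Their outermost bounds among the members were a fold change of 0.739 for Bub1 and of 1.39 for Ccnb1.

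**Figure D1:**
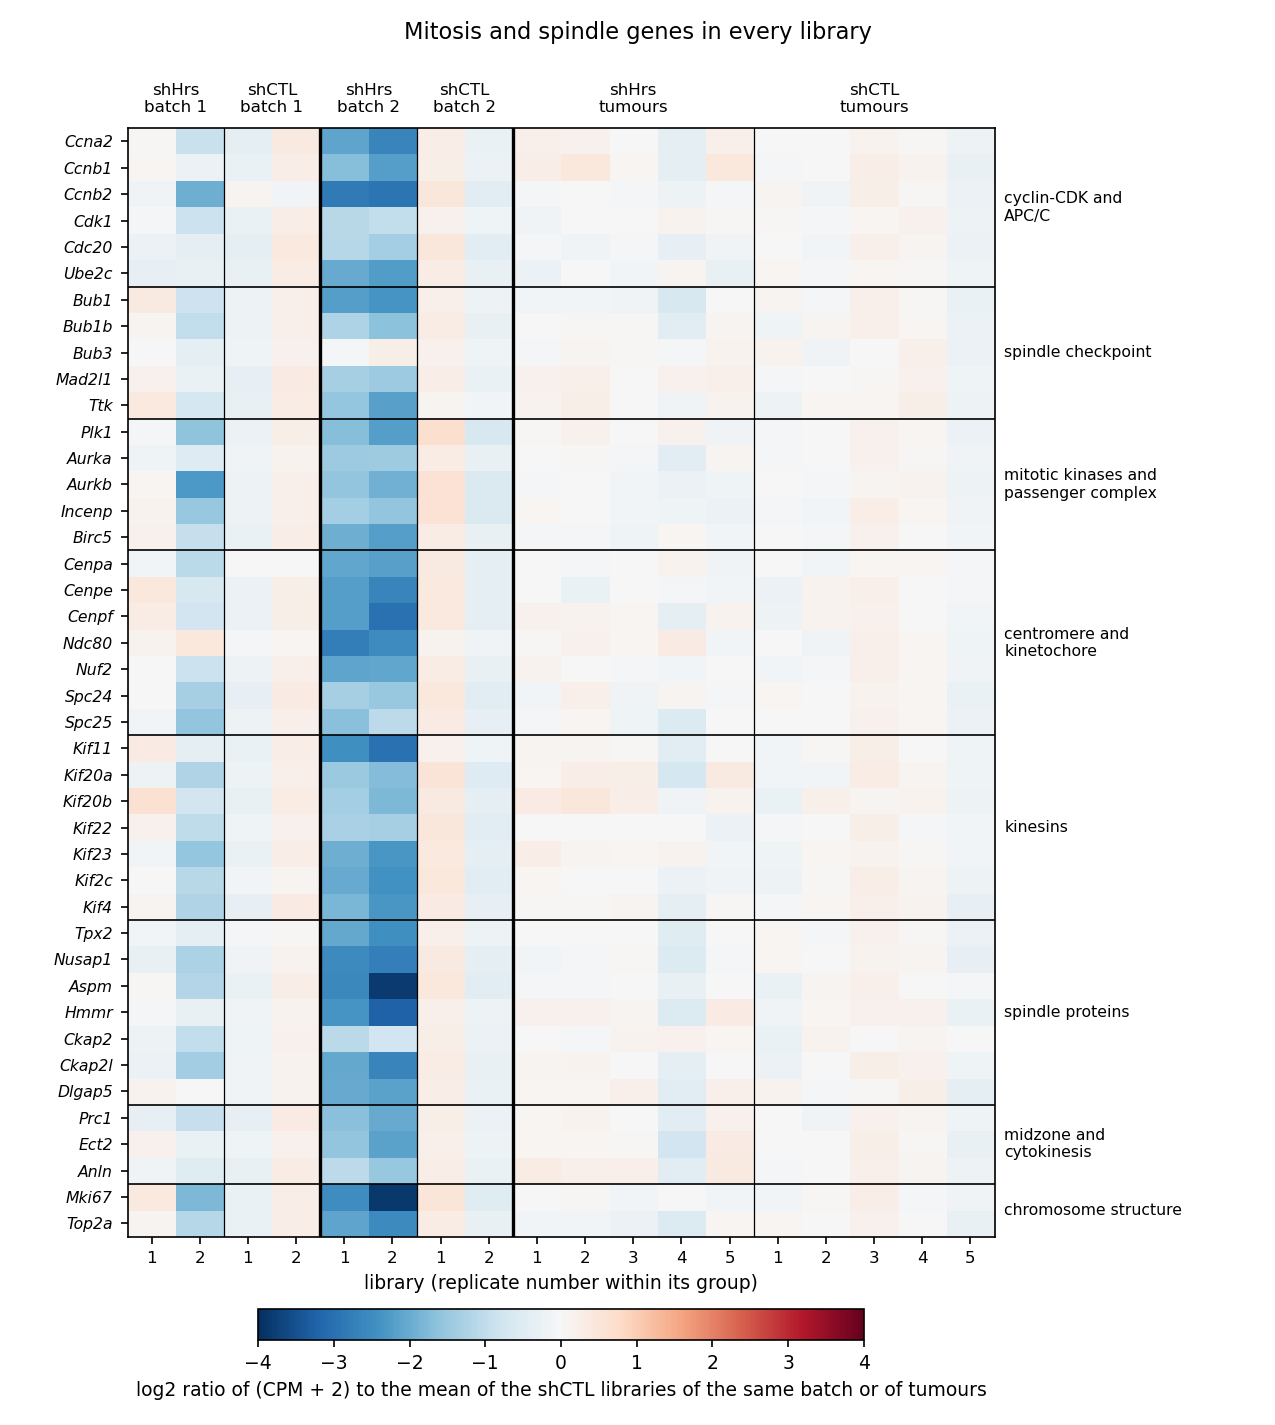
Each cell is the log2 ratio of a gene's CPM, plus a pseudocount of 2, to the mean of the shCTL libraries of the same batch or of the tumours, for the 42 genes (rows, by role) in the 18 libraries (columns). The 2 shHrs columns of batch 2 are blue in every row but Bub3, the shHrs replicate 2 column of batch 1 is mostly paler blue (median -0.90), with Ndc80 above 0 at 0.42. The tumour columns have medians from -0.28 to 0.19, and the lowest cell in them is Ect2 in shHrs 4, at -0.77.

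**Figure D2:**
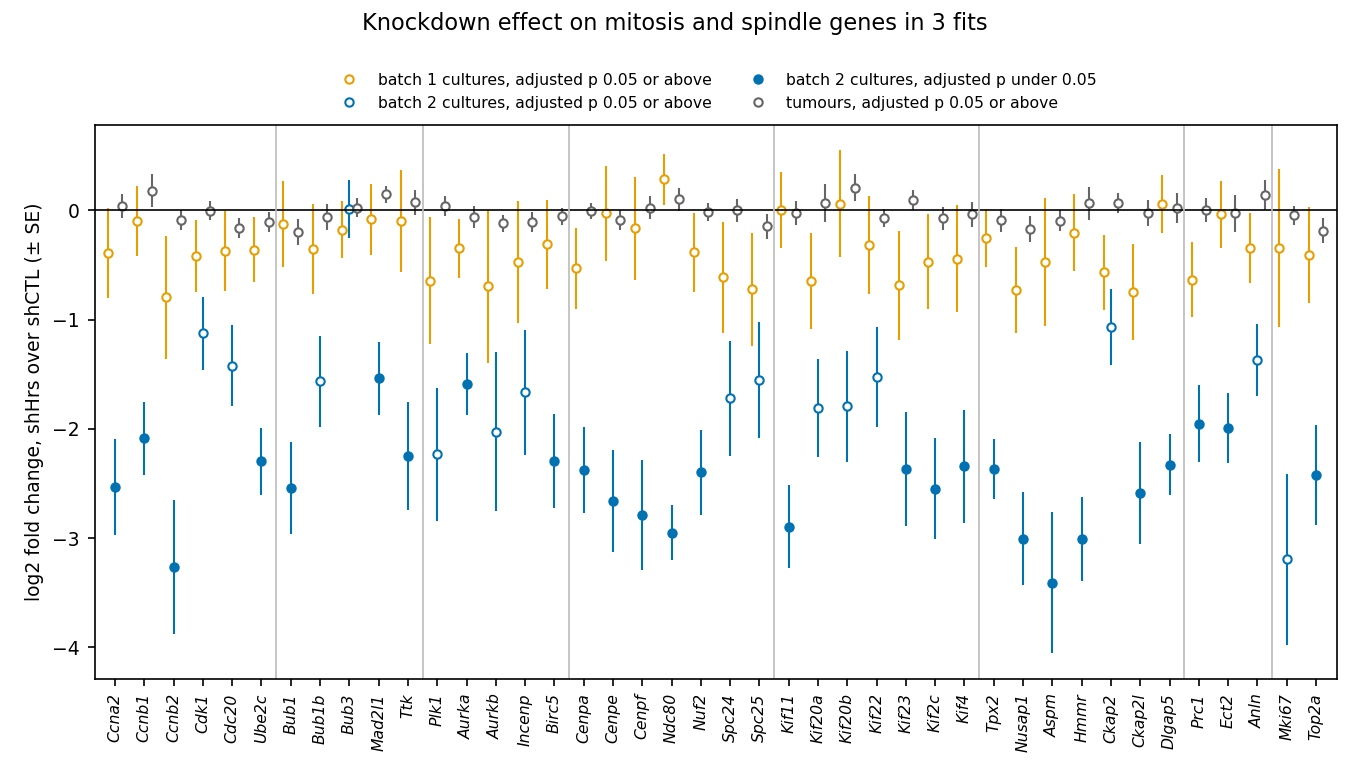
Points are log2 fold changes, shHrs over shCTL, of each of the 42 genes in batch 1 cultures, batch 2 cultures and tumours, with the standard error of edgeR's fit as bars and filled points for an adjusted p under 0.05. The batch 2 points run from -3.41 to 0.01, the batch 1 points from -0.80 to 0.28 and the tumour points from -0.20 to 0.21.

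**Figure D3:**
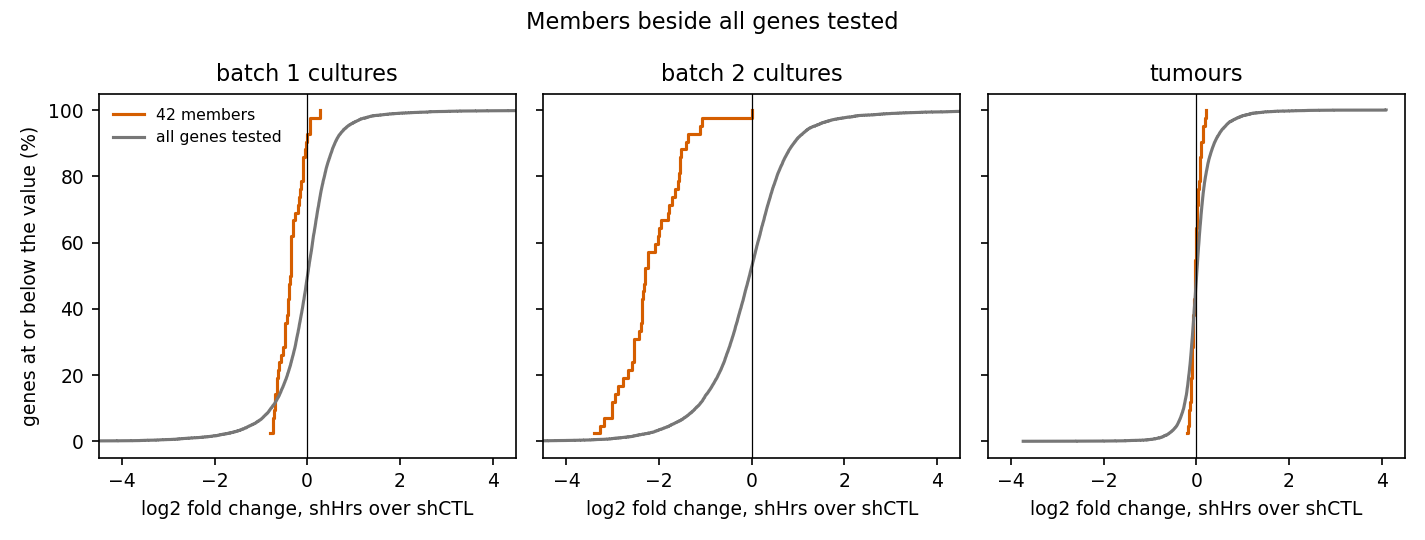
Cumulative share of genes (y axis, %) at or below each log2 fold change (x axis, shHrs over shCTL) for the 42 members and for all genes tested in the same fit. The member curve lies far left of that of all genes in batch 2 (median -2.30, against -0.05) and slightly left in batch 1 (-0.36, against 0.01). In tumours the medians nearly coincide (-0.02, against 0.01). There the member curve is the steeper, from -0.20 to 0.21, and that of all genes extends further on both sides.

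The promoters of these genes were read from RefSeq windows of build GRCm38.p6, from 250 bases before the start of the gene to 50 bases from it on. The members were chosen as mitosis genes, whose control is known to run through these elements. High shares thus go with that choice, and a part of the elements in the fall in batch 2 was not tested. Windows were found for 35 of the 42 genes, and none was matched for Ccna2, Tpx2, Incenp, Aurkb, Kif20a, Dlgap5 and Spc24. The CHR was searched as TTTGAA or TTCGAA on either strand, so that TTCAAA in a window is a match too, and the CCAAT box as CCAAT on either strand. A CHR was present in 29 of the 35 windows (82.9%), against 21.7% of the windows of all 27025 genes in the RefSeq table. CCAAT was present in 27 (77.1%), against 41.1%, and both together in 25 (71.4%), against 9.65%. The CHR matches lay at a median position of -5 from the start site, with 70.7% within 50 bases of it, against -125 and 25.2% in all windows. Of windows of 43 DNA replication genes, 35 were found and 7 held a CHR. The further mitosis genes outside the 42 members had 60 windows, of which 38 held a CHR (63.3%) and 42 a CCAAT (70.0%). Below are the windows of the members with the lowest p in the difference between batches (Ndc80, Kif11, Hmmr and Ube2c, among those with a window) and of Bub3, the member whose effect was nearest 0 there. Each runs 5′ to 3′ along the gene's strand, and capitals mark CHR and CCAAT matches.
Ndc80, chr17:71526808-71527107, minus strand: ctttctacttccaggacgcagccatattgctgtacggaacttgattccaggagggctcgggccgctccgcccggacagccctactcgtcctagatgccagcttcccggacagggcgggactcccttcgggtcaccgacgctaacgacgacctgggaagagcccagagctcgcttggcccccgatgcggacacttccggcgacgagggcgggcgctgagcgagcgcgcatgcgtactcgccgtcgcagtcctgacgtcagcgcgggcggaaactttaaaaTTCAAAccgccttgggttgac
Kif11, chr19:37376132-37376431, plus strand: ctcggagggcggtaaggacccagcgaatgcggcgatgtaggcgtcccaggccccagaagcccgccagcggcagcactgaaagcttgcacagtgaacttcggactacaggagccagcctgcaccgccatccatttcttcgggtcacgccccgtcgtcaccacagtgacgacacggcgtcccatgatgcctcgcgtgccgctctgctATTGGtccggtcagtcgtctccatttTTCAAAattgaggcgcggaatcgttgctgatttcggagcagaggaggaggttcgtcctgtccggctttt
Hmmr, chr11:40733388-40733687, minus strand: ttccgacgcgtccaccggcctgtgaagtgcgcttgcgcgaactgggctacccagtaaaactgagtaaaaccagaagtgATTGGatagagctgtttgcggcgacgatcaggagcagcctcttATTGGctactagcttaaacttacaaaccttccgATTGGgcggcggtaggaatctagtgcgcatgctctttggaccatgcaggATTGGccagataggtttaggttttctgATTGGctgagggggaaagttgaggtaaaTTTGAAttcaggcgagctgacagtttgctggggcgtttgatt
Ube2c, chr2:164769679-164769978, plus strand: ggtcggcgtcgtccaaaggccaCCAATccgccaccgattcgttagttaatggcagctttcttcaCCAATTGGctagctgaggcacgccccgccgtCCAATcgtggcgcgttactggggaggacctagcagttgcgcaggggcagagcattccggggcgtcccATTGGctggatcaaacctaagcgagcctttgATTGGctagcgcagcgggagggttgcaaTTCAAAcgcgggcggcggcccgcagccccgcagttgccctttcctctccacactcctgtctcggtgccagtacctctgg
Bub3, chr7:131560120-131560419, plus strand: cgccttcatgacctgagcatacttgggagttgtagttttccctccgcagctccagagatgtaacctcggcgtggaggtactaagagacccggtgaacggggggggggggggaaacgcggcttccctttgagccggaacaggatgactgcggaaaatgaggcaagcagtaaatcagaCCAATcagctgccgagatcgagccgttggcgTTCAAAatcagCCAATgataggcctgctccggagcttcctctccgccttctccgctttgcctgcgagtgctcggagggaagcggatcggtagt
Counted from the start site, the first base of the CHR was at 30 in Ndc80, -19 in Kif11, 9 in Hmmr, -29 in Ube2c and -43 in Bub3. Ndc80 held 0 CCAAT matches, Kif11 1, Hmmr 5, Ube2c 6 and Bub3 2, and a pair of those in Ube2c share bases in CCAATTGG. In batch 2 the median log2 fold change was -2.30 over the 29 members with a CHR and -2.35 over the 6 without, which were Ccnb1, Mad2l1, Birc5, Cenpe, Nuf2 and Nusap1. Bub3, with a log2 fold change of 0.01, held both elements.

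In the cyclin-CDK and APC/C group 4 of 6 genes fell in batch 2, namely Ube2c, Ccnb1, Ccna2 and Ccnb2. Ccna2, the cyclin that partners CDKs in S phase and at the entry into mitosis, had 26.5 and 17.98 CPM in shHrs cultures of batch 2, against 149 and 100.3 CPM in shCTL cultures. Batch 1 gave Ccna2 levels of 175 and 89.2 CPM with shHrs, against 132 and 214 CPM with shCTL. In tumours Ccna2 stood at 261, 256, 222, 172 and 262 CPM with shHrs, against 226, 227, 249.5, 237 and 198 CPM with shCTL. Ccna2 passed in batch 2, where its log2 fold change was -2.53 (SE 0.44) and its adjusted p 0.0272 by edgeR's quasi-likelihood test. Cdk1 encodes the kinase that B-type cyclins activate to start mitosis. Cdk1 was at 62.05 and 68.8 CPM with shHrs in batch 2, against 154 and 121 CPM with shCTL, and at 218 and 124 CPM with shHrs in batch 1, against 185 and 271 CPM with shCTL. Cdk1 was found at 145, 164, 158, 177 and 164 CPM in shHrs tumours, against 167, 152, 171, 179.5 and 138 CPM in shCTL tumours. Cdk1 had a batch 2 log2 fold change of -1.13 (SE 0.34) and an adjusted p of 0.084 by edgeR's quasi-likelihood test, and did not pass. For Ccnb1, the main cyclin of mitotic entry, the batch 2 cultures gave 28.1 and 19.4 CPM with shHrs, against 114 and 80.9 CPM with shCTL. Ccnb1 in batch 1 was at 145 and 115 CPM with shHrs, against 112 and 164 CPM with shCTL. Ccnb1 in shHrs tumours measured 171, 192, 151, 109 and 193 CPM, against 134, 140.3, 172, 157 and 116 CPM in shCTL tumours. Ccnb1 passed in batch 2, where its log2 fold change was -2.09 (SE 0.33) and its adjusted p 0.0243 by edgeR's quasi-likelihood test. Ccnb2 (another B-type partner of Cdk1) counted 8.95 and 8.11 CPM in shHrs cultures of batch 2, against 104 and 54.1 CPM in shCTL cultures of that batch. Ccnb2 showed 90.05 and 24.003 CPM with shHrs in batch 1, against 107 and 91.8 CPM with shCTL. Tumours gave Ccnb2 values of 103, 108, 103, 91.6 and 100.1 CPM with shHrs, against 114, 96.7, 125, 109 and 89.4 CPM with shCTL. Ccnb2 fell in batch 2, with a log2 fold change of -3.27 (SE 0.61, adjusted p = 0.0329, edgeR quasi-likelihood). Ube2c, the ubiquitin-conjugating enzyme that works with the APC/C, had 22.5 and 19.1 CPM in shHrs cultures of batch 2, against 119 and 79.1 CPM in shCTL cultures. Batch 1 gave Ube2c levels of 96.6 and 99.7 CPM with shHrs, against 99.6 and 150.3 CPM with shCTL. In tumours Ube2c stood at 108, 127, 116, 136 and 101 CPM with shHrs, against 133, 122, 133, 130.4 and 113 CPM with shCTL. Ube2c passed in batch 2, where its log2 fold change was -2.30 (SE 0.31) and its adjusted p 0.0229 by edgeR's quasi-likelihood test. Cdc20, the APC/C activator that the checkpoint holds back, had 37.5 and 31.7 CPM with shHrs in batch 2, against 116 and 62.3 CPM with shCTL, with a log2 fold change of -1.42 and an adjusted p of 0.0666 by edgeR. In all 6 genes both shHrs cultures of batch 2 lay below both controls. Ccnb2 alone of the 6 had both shHrs cultures below both controls in batch 1 as well, although replicate 1 was only just below. Such separation in batch 1 was seen in 16.8% of all genes tested. Exons of Ccna2, Cdc20 and Ube2c overlap those of Exosc9, Elovl1 and Tnnc2, with 12.5%, 2.84% and 22.8% of their exon bases shared, and the reads could not be told apart without a stated strand setting. Tnnc2 is a skeletal muscle gene.

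Of the 5 spindle checkpoint genes 3 fell in batch 2, and the checkpoint also held the member that moved least. Bub3 encodes the WD-repeat protein that brings Bub1 and Bub1b to kinetochores. Bub3 was at 206 and 254 CPM with shHrs in batch 2, against 246 and 194 CPM with shCTL, and at 277 and 212 CPM with shHrs in batch 1, against 246 and 306 CPM with shCTL. Bub3 was found at 195, 219.8, 208, 197 and 221 CPM in shHrs tumours, against 224, 182, 206, 234 and 173 CPM in shCTL tumours. Bub3 had a batch 2 log2 fold change of 0.01 (SE 0.26) and an adjusted p of 0.976 by edgeR's quasi-likelihood test, and did not pass. For Bub1b, the gene of BubR1 in the complex that inhibits Cdc20, the batch 2 cultures gave 38.7 and 28.9 CPM with shHrs, against 118 and 75.9 CPM with shCTL. Bub1b in batch 1 was at 151 and 70.3 CPM with shHrs, against 120.4 and 163 CPM with shCTL. Bub1b in shHrs tumours measured 97.6, 104, 102, 72.6 and 107 CPM, against 88.3, 108, 116, 106 and 83.9 CPM in shCTL tumours. With a log2 fold change of -1.57 (SE 0.42), Bub1b did not pass in batch 2 (adjusted p = 0.0685, edgeR quasi-likelihood). Bub1 (a kinase that marks unattached kinetochores) counted 11.8 and 10.5 CPM in shHrs cultures of batch 2, against 72.3 and 52.9 CPM in shCTL cultures of that batch. Bub1 showed 99.7 and 42.6 CPM with shHrs in batch 1, against 67.3 and 87.96 CPM with shCTL. Tumours gave Bub1 values of 105, 105, 102, 72.2 and 115 CPM with shHrs, against 124, 106, 130.4, 117 and 93.5 CPM with shCTL. Bub1 fell in batch 2, with a log2 fold change of -2.54 (SE 0.42, adjusted p = 0.0264, edgeR quasi-likelihood). Mad2l1, the gene of the Mad2 protein that binds Cdc20, had 25.5 and 23.01 CPM in shHrs cultures of batch 2, against 80.9 and 55.2 CPM in shCTL cultures. Batch 1 gave Mad2l1 levels of 98.9 and 71.96 CPM with shHrs, against 68.9 and 111 CPM with shCTL. In tumours Mad2l1 stood at 107, 110.0, 96.3, 108 and 111 CPM with shHrs, against 92.8, 95.98, 99.5, 107 and 84.2 CPM with shCTL. Mad2l1 passed in batch 2, where its log2 fold change was -1.54 (SE 0.33) and its adjusted p 0.0447 by edgeR's quasi-likelihood test. Ttk encodes Mps1, the kinase that starts checkpoint signalling. Ttk was at 6.41 and 3.49 CPM with shHrs in batch 2, against 24.8 and 20.7 CPM with shCTL, and at 34.1 and 14.8 CPM with shHrs in batch 1, against 20.5 and 31.9 CPM with shCTL. Ttk was found at 28.8, 30.3, 26.01, 22.99 and 28.6 CPM in shHrs tumours, against 22.2, 27.5, 27.2, 30.8 and 21.9 CPM in shCTL tumours. Ttk fell in batch 2, with a log2 fold change of -2.25 (SE 0.49, adjusted p = 0.0468, edgeR quasi-likelihood). Bub3 groups overlapped in batch 2, and the other 4 genes separated there. All 5 overlapped in batch 1 and in tumours.

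Among the mitotic kinases and the chromosomal passenger complex, Aurka and Birc5 fell in batch 2, 2 of 5 genes. For Plk1, the polo-like kinase of centrosome maturation and mitotic exit, the batch 2 cultures gave 23.2 and 15.9 CPM with shHrs, against 127 and 50.6 CPM with shCTL. Plk1 in batch 1 was at 152 and 49.6 CPM with shHrs, against 131 and 184 CPM with shCTL. Plk1 in shHrs tumours measured 105, 115, 101, 113 and 90.6 CPM, against 96.4, 103, 115, 108 and 86.1 CPM in shCTL tumours. With a log2 fold change of -2.23 (SE 0.61), Plk1 did not pass in batch 2 (adjusted p = 0.0711, edgeR quasi-likelihood). Birc5 (survivin, a subunit that targets the passenger complex to centromeres) counted 14.97 and 12.3 CPM in shHrs cultures of batch 2, against 78.8 and 50.5 CPM in shCTL cultures of that batch. Birc5 showed 94.2 and 43.5 CPM with shHrs in batch 1, against 70.1 and 101 CPM with shCTL. Tumours gave Birc5 values of 139, 138, 127, 152 and 133 CPM with shHrs, against 145, 134, 159.9, 142 and 133 CPM with shCTL. Birc5 fell in batch 2, with a log2 fold change of -2.30 (SE 0.43, adjusted p = 0.0329, edgeR quasi-likelihood). Aurka, the Aurora kinase of centrosomes and spindle poles, had 26.3 and 26.6 CPM in shHrs cultures of batch 2, against 92.1 and 61.6 CPM in shCTL cultures. Batch 1 gave Aurka levels of 89.2 and 70.5 CPM with shHrs, against 90.99 and 111 CPM with shCTL. In tumours Aurka stood at 75.2, 76.7, 70.5, 54.4 and 80.9 CPM with shHrs, against 71.3, 73.4, 84.6, 75.9 and 66.5 CPM with shCTL. Aurka passed in batch 2, where its log2 fold change was -1.59 (SE 0.28) and its adjusted p 0.0286 by edgeR's quasi-likelihood test. Incenp encodes the scaffold of the passenger complex. Incenp was at 40.2 and 34.5 CPM with shHrs in batch 2, against 158 and 70.6 CPM with shCTL, and at 171 and 52.95 CPM with shHrs in batch 1, against 134 and 178 CPM with shCTL. Incenp was found at 115, 107, 101, 96.4 and 92.3 CPM in shHrs tumours, against 104, 100.3, 132, 115 and 98.6 CPM in shCTL tumours. Incenp had a batch 2 log2 fold change of -1.67 (SE 0.57) and an adjusted p of 0.108 by edgeR's quasi-likelihood test, and did not pass. Aurkb, the catalytic subunit of that complex, had 19.9 and 15.2 CPM with shHrs in batch 2, against 95.7 and 42.4 CPM with shCTL, a log2 fold change of -2.03 (SE 0.73) and an adjusted p of 0.12 by edgeR. Its batch 1 levels were 124 and 22.2 CPM with shHrs, against 102 and 136 CPM with shCTL, so shHrs replicate 2 was the only low library. All 5 genes separated in batch 2 and overlapped in tumours. Aurka had both shHrs cultures below both controls in batch 1 as well, as had 16.8% of all genes tested. Plk1, Aurkb and Incenp, the 3 that did not pass, had shCTL replicates of batch 2 further from each other than those of Aurka and Birc5. Their shHrs replicates of batch 1 were further apart too, and the fit shares a single estimate of the spread over all cultures. Which libraries kept these genes from passing was not tested.

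The centromere and kinetochore genes fell in 5 of 7 cases in batch 2. For Cenpa, the histone H3 variant that marks centromeres, the batch 2 cultures gave 13.4 and 12.5 CPM with shHrs, against 81.3 and 48.7 CPM with shCTL. Cenpa in batch 1 was at 68.4 and 34.1 CPM with shHrs, against 73.7 and 74.4 CPM with shCTL. Cenpa in shHrs tumours measured 83.4, 80.9, 83.4, 91.2 and 75.2 CPM, against 82.1, 77.5, 88.4, 86.8 and 80.5 CPM in shCTL tumours. Cenpa passed in batch 2, where its log2 fold change was -2.38 (SE 0.39) and its adjusted p 0.0262 by edgeR's quasi-likelihood test. Cenpe (a kinetochore kinesin that carries chromosomes to the metaphase plate) counted 17.4 and 12.1 CPM in shHrs cultures of batch 2, against 115 and 65.3 CPM in shCTL cultures of that batch. Cenpe showed 92.6 and 42.9 CPM with shHrs in batch 1, against 57.95 and 79.96 CPM with shCTL. Tumours gave Cenpe values of 112, 92.01, 111, 105 and 103 CPM with shHrs, against 93.1, 122, 127, 110.3 and 104 CPM with shCTL. Cenpe fell in batch 2, with a log2 fold change of -2.66 (SE 0.46, adjusted p = 0.0282, edgeR quasi-likelihood). Cenpf, a large coiled-coil protein of the outer kinetochore, had 19.3 and 10.4 CPM in shHrs cultures of batch 2, against 127 and 71.9 CPM in shCTL cultures. Batch 1 gave Cenpf levels of 118 and 54.96 CPM with shHrs, against 81.5 and 113 CPM with shCTL. In tumours Cenpf stood at 135, 132, 126, 92.5 and 132 CPM with shHrs, against 105, 132, 136, 120.2 and 112 CPM with shCTL. Cenpf passed in batch 2, where its log2 fold change was -2.79 (SE 0.50) and its adjusted p 0.0302 by edgeR's quasi-likelihood test. Ndc80, Nuf2, Spc24 and Spc25 form the Ndc80 complex, which holds microtubules at the kinetochore.

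Ndc80 encodes the subunit that names the complex and binds the microtubule. Ndc80 was at 7.56 and 9.42 CPM with shHrs in batch 2, against 69.4 and 57.5 CPM with shCTL, and at 46.1 and 56.8 CPM with shHrs in batch 1, against 39.7 and 44.1 CPM with shCTL. Ndc80 was found at 56.5, 62.04, 58.5, 68.97 and 50.7 CPM in shHrs tumours, against 55.8, 49.7, 63.95, 58.2 and 48.04 CPM in shCTL tumours. Ndc80 fell in batch 2, with a log2 fold change of -2.95 (SE 0.25, adjusted p = 0.0189, edgeR quasi-likelihood). For Nuf2, its dimer partner, the batch 2 cultures gave 8.95 and 9.23 CPM with shHrs, against 55.98 and 36.6 CPM with shCTL. Nuf2 in batch 1 was at 53.5 and 27.9 CPM with shHrs, against 45.2 and 60.99 CPM with shCTL. Nuf2 in shHrs tumours measured 67.4, 60.7, 57.2, 55.5 and 59.9 CPM, against 56.3, 58.9, 69.3, 64.4 and 54.5 CPM in shCTL tumours. Nuf2 passed in batch 2, where its log2 fold change was -2.40 (SE 0.39) and its adjusted p 0.0251 by edgeR's quasi-likelihood test. Spc24, of the dimer that faces the chromosome, had a batch 2 log2 fold change of -1.72 (adjusted p = 0.0869, edgeR), from 10.1 and 8.48 CPM in shHrs cultures, against 38.7 and 20.4 CPM in shCTL cultures. Its partner Spc25 was at 9.19 and 14.98 CPM with shHrs, against 41.9 and 26.4 CPM with shCTL, with -1.55 on the log2 scale and an adjusted p of 0.107 by edgeR. All 7 kinetochore genes separated in batch 2 and overlapped in tumours. In batch 1 Ndc80 was the only 1 of the 42 members with both shHrs cultures above both controls, against 15.3% of all genes tested, and Cenpa had both below, as had 8 members in all, against 16.8%.

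Kinesins are the motors that slide, shorten and carry along spindle microtubules, and 4 of 7 fell in batch 2. Kif11 (Eg5, the motor that pushes spindle poles apart) counted 19.1 and 12.6 CPM in shHrs cultures of batch 2, against 128 and 100.3 CPM in shCTL cultures of that batch. Kif11 showed 164 and 101 CPM with shHrs in batch 1, against 106 and 158 CPM with shCTL. Tumours gave Kif11 values of 122, 121, 116, 83.4 and 115 CPM with shHrs, against 104, 115, 131, 113 and 99.6 CPM with shCTL. Kif11 fell in batch 2, with a log2 fold change of -2.89 (SE 0.38, adjusted p = 0.0229, edgeR quasi-likelihood). Kif4, a chromokinesin that also works at the midzone, had 11.8 and 7.73 CPM in shHrs cultures of batch 2, against 58.8 and 37.2 CPM in shCTL cultures. Batch 1 gave Kif4 levels of 72.99 and 27.9 CPM with shHrs, against 52.97 and 84.2 CPM with shCTL. In tumours Kif4 stood at 65.7, 65.5, 69.5, 48.3 and 66.8 CPM with shHrs, against 61.2, 67.1, 73.8, 70.2 and 50.2 CPM with shCTL. Kif4 passed in batch 2, where its log2 fold change was -2.34 (SE 0.52) and its adjusted p 0.0468 by edgeR's quasi-likelihood test. Kif23 encodes MKLP1, the motor subunit of centralspindlin. Kif23 was at 17.3 and 12.7 CPM with shHrs in batch 2, against 94.7 and 54.8 CPM with shCTL, and at 96.9 and 34.3 CPM with shHrs in batch 1, against 85.5 and 126 CPM with shCTL. Kif23 was found at 92.4, 82.8, 79.97, 85.05 and 70.6 CPM in shHrs tumours, against 67.7, 80.9, 85.2, 78.99 and 70.3 CPM in shCTL tumours. Kif23 fell in batch 2, with a log2 fold change of -2.37 (SE 0.52, adjusted p = 0.0476, edgeR quasi-likelihood). For Kif2c, the gene of the MCAK motor that depolymerises microtubules at centromeres, the batch 2 cultures gave 10.4 and 7.28 CPM with shHrs, against 64.5 and 35.4 CPM with shCTL. Kif2c in batch 1 was at 65.3 and 29.6 CPM with shHrs, against 60.7 and 70.8 CPM with shCTL. Kif2c in shHrs tumours measured 54.3, 52.5, 51.6, 43.3 and 47.03 CPM, against 45.01, 53.4, 62.2, 55.6 and 44.7 CPM in shCTL tumours. Kif2c passed in batch 2, where its log2 fold change was -2.55 (SE 0.46) and its adjusted p 0.0304 by edgeR's quasi-likelihood test. The other 3, which did not pass, had batch 2 log2 fold changes of -1.81 for Kif20a, -1.79 for Kif20b and -1.53 for Kif22, with adjusted p from 0.0613 to 0.0841 by edgeR. Kif20a and Kif20b are kinesins of the midzone and Kif22 is a chromokinesin. All 7 kinesins separated in batch 2 and overlapped in tumours. Kif20a had both shHrs cultures below both controls in batch 1 as well, as had 16.8% of all genes tested. Kif20b in tumours was at 81.9, 88.9, 78.9, 59.4 and 71.4 CPM with shHrs, against 53.5, 75.9, 69.98, 72.3 and 56.8 CPM with shCTL. Exons of Kif20a and Cdc23 overlap over 29.3% of the bases of Kif20a, and those of Kif4 and Pdzd11 over 15.1% of Kif4.

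Spindle proteins were the role with the largest share of calls, with 6 of 7 lower in batch 2. Tpx2 (the factor that activates Aurora A and nucleates microtubules near chromatin) counted 43.9 and 32.4 CPM in shHrs cultures of batch 2, against 217 and 164 CPM in shCTL cultures of that batch. Tpx2 showed 193 and 157 CPM with shHrs in batch 1, against 200.3 and 216 CPM with shCTL. Tumours gave Tpx2 values of 185, 187, 183, 130.3 and 181 CPM with shHrs, against 192, 173, 208, 191 and 154 CPM with shCTL. Tpx2 fell in batch 2, with a log2 fold change of -2.37 (SE 0.28, adjusted p = 0.0225, edgeR quasi-likelihood). Nusap1, a protein that bundles spindle microtubules, had 8.56 and 7.21 CPM in shHrs cultures of batch 2, against 76.5 and 45.8 CPM in shCTL cultures. Batch 1 gave Nusap1 levels of 53.02 and 25.8 CPM with shHrs, against 58.7 and 72.1 CPM with shCTL. In tumours Nusap1 stood at 65.5, 67.8, 73.2, 47.9 and 67.3 CPM with shHrs, against 75.2, 71.6, 79.8, 76.9 and 56.3 CPM with shCTL. Nusap1 passed in batch 2, where its log2 fold change was -3.01 (SE 0.42) and its adjusted p 0.0229 by edgeR's quasi-likelihood test. Hmmr encodes a receptor for hyaluronan that also binds spindle microtubules. Hmmr was at 14.3 and 6.87 CPM with shHrs in batch 2, against 94.5 and 69.6 CPM with shCTL, and at 81.4 and 69.1 CPM with shHrs in batch 1, against 78.002 and 94.4 CPM with shCTL. Hmmr was found at 76.2, 76.3, 72.3, 44.97 and 85.8 CPM in shHrs tumours, against 60.4, 70.6, 76.8, 75.3 and 55.6 CPM in shCTL tumours. Hmmr fell in batch 2, with a log2 fold change of -3.01 (SE 0.39, adjusted p = 0.0225, edgeR quasi-likelihood). For Aspm, a spindle pole protein whose loss causes microcephaly, the batch 2 cultures gave 15.1 and 5.07 CPM with shHrs, against 134 and 72.98 CPM with shCTL. Aspm in batch 1 was at 124 and 52.4 CPM with shHrs, against 98.4 and 146 CPM with shCTL. Aspm in shHrs tumours measured 75.98, 74.6, 76.3, 62.6 and 78.3 CPM, against 64.5, 84.7, 90.5, 78.3 and 73.2 CPM in shCTL tumours. Aspm passed in batch 2, where its log2 fold change was -3.41 (SE 0.65) and its adjusted p 0.0337 by edgeR's quasi-likelihood test.

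Dlgap5 (HURP, which stabilises kinetochore fibres) counted 12.1 and 10.8 CPM in shHrs cultures of batch 2, against 66.01 and 44.8 CPM in shCTL cultures of that batch. Dlgap5 showed 58.6 and 52.6 CPM with shHrs in batch 1, against 47.8 and 58.4 CPM with shCTL. Tumours gave Dlgap5 values of 48.8, 49.3, 54.2, 33.3 and 53.8 CPM with shHrs, against 50.95, 44.7, 48.1, 55.5 and 35.5 CPM with shCTL. Dlgap5 fell in batch 2, with a log2 fold change of -2.33 (SE 0.28, adjusted p = 0.0225, edgeR quasi-likelihood). Ckap2l, a spindle protein known in mouse as Radmis, had 13.4 and 8.26 CPM in shHrs cultures of batch 2, against 76.5 and 49.3 CPM in shCTL cultures. Batch 1 gave Ckap2l levels of 68.8 and 29.7 CPM with shHrs, against 73.6 and 91.5 CPM with shCTL. In tumours Ckap2l stood at 72.8, 73.95, 68.3, 51.3 and 67.3 CPM with shHrs, against 56.9, 66.6, 79.5, 75.6 and 59.04 CPM with shCTL. Ckap2l passed in batch 2, where its log2 fold change was -2.59 (SE 0.47) and its adjusted p 0.0304 by edgeR's quasi-likelihood test. Ckap2 encodes its relative on spindle microtubules. Ckap2 was at 15.98 and 20.3 CPM with shHrs in batch 2, against 43.2 and 30.2 CPM with shCTL, and at 42.3 and 23.7 CPM with shHrs in batch 1, against 42.96 and 54.5 CPM with shCTL. Ckap2 was found at 38.04, 36.4, 42.01, 42.6 and 39.4 CPM in shHrs tumours, against 30.8, 41.6, 37.9, 40.3 and 37.9 CPM in shCTL tumours. Ckap2 had a batch 2 log2 fold change of -1.07 (SE 0.35) and an adjusted p of 0.098 by edgeR's quasi-likelihood test, and did not pass. All 7 spindle genes separated in batch 2. In batch 1 both shHrs cultures lay below both controls in Tpx2, Nusap1, Ckap2 and Ckap2l, as they did in 16.8% of all genes tested. All 7 overlapped in tumours.

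Of the 3 genes of the midzone and cytokinesis, Ect2 and Prc1 fell in batch 2. For Prc1, the protein that bundles antiparallel microtubules at the midzone, the batch 2 cultures gave 43.8 and 34.4 CPM with shHrs, against 172 and 121 CPM with shCTL. Prc1 in batch 1 was at 163 and 107 CPM with shHrs, against 162 and 255 CPM with shCTL. Prc1 in shHrs tumours measured 149, 157, 143, 105 and 160.3 CPM, against 143, 129, 160.2, 151 and 125 CPM in shCTL tumours. Prc1 passed in batch 2, where its log2 fold change was -1.95 (SE 0.35) and its adjusted p 0.0301 by edgeR's quasi-likelihood test. Anln (anillin, the scaffold of the contractile ring) counted 64.1 and 46.7 CPM in shHrs cultures of batch 2, against 163 and 113 CPM in shCTL cultures of that batch. Anln showed 198 and 154 CPM with shHrs in batch 1, against 175 and 270.3 CPM with shCTL. Tumours gave Anln values of 180.3, 171, 169.8, 107 and 190.0 CPM with shHrs, against 141, 144, 168, 158 and 127 CPM with shCTL. Anln had a batch 2 log2 fold change of -1.37 (SE 0.33) and an adjusted p of 0.0566 by edgeR's quasi-likelihood test, and did not pass. Ect2, the exchange factor that activates RhoA at the cell equator, had 27.2 and 17.8 CPM with shHrs in batch 2, against 98.1 and 75.03 CPM with shCTL, and a log2 fold change of -1.99 (SE 0.32, adjusted p = 0.0244, edgeR). Its tumour levels were 103, 103, 100.2, 56.5 and 123 CPM with shHrs, against 98.2, 95.9, 117, 102 and 79.7 CPM with shCTL, where shHrs 4 was the lowest of the 10. Exons of Prc1 overlap those of Rccd1 over 11.1% of its bases.

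The chromosome structure group holds the proliferation markers Mki67 and Top2a. Mki67, the gene of the Ki-67 protein that coats mitotic chromosomes, had 55.9 and 20.3 CPM in shHrs cultures of batch 2, against 449 and 227 CPM in shCTL cultures. Batch 1 gave Mki67 levels of 572 and 126 CPM with shHrs, against 359.7 and 531 CPM with shCTL. In tumours Mki67 stood at 502, 503, 457, 486 and 453 CPM with shHrs, against 453, 509, 589.5, 469.9 and 449.8 CPM with shCTL. With a log2 fold change of -3.19 (SE 0.79), Mki67 did not pass in batch 2 (adjusted p = 0.0589, edgeR quasi-likelihood). Top2a encodes the topoisomerase that untangles sister chromatids. Top2a was at 97.7 and 71.7 CPM with shHrs in batch 2, against 528 and 350.3 CPM with shCTL, and at 565 and 238 CPM with shHrs in batch 1, against 438 and 628 CPM with shCTL. Top2a was found at 559, 563, 521, 419.6 and 642 CPM in shHrs tumours, against 641, 619, 687, 618 and 496 CPM in shCTL tumours. Top2a fell in batch 2, with a log2 fold change of -2.42 (SE 0.46, adjusted p = 0.0337, edgeR quasi-likelihood). Mki67 had a log2 fold change below those of all but Aspm and Ccnb2 among the 42 genes in batch 2, and its standard error was the largest of them. Per kilobase of annotated exon, the highest mean levels in shCTL cultures of batch 2 were those of Ccnb2 (51.8 CPM per kb), Top2a (48.7) and Cdc20 (47.8), and the lowest were those of Ttk (4.62), Kif20b (6.29) and Cenpf (6.43).

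**Figure D4:**
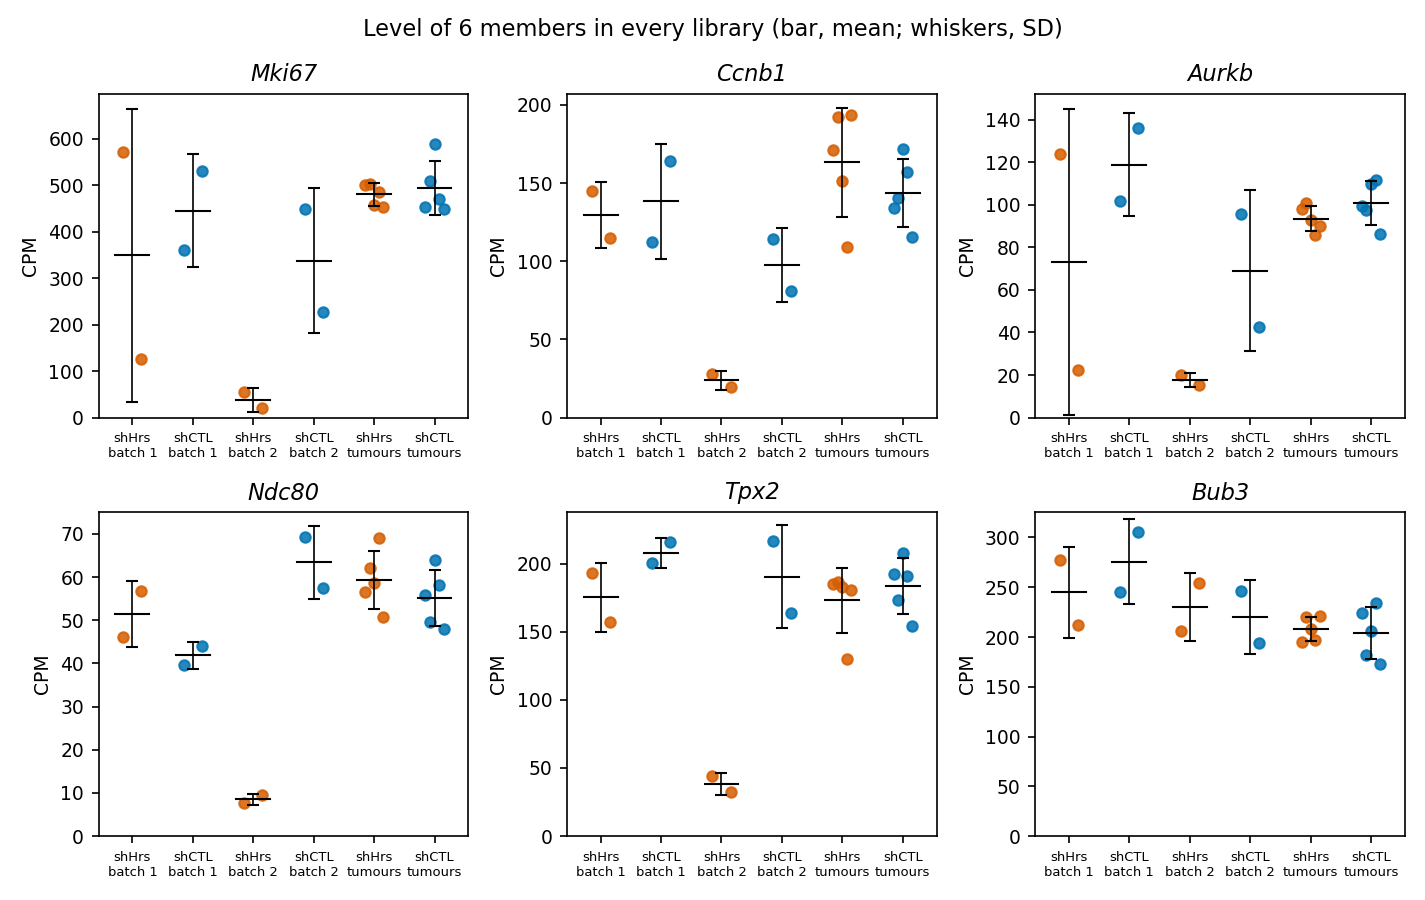
CPM of Mki67, Ccnb1, Aurkb, Ndc80, Tpx2 and Bub3 in each library of the 6 groups (orange, shHrs; blue, shCTL), with the mean as a bar and the SD as whiskers. In batch 2 the shHrs points lie below the shCTL points for every gene shown except Bub3, and Aurkb is low in shHrs replicate 2 of batch 1.

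The shHrs cultures of batch 1 differed from each other. On the log2 ratio to the mean of the batch's shCTL cultures, replicate 1 had a median of 0.04 over the 42 genes, and replicate 2 a median of -0.90, from -2.31 for Aurkb to 0.42 for Ndc80. Replicate 1 lay below both shCTL cultures in 9 genes, against 32.6% of all genes tested, and above both in 11, against 29.1%. Replicate 2 lay below both in 36 of 42 genes, against 38.3% of all genes tested, and the exceptions were Ccnb1, Cdc20, Ube2c, Mad2l1, Ndc80 and Dlgap5. Hgs was at 35.2 and 30.4 CPM in these replicates 1 and 2. Left without shHrs replicate 1, batch 1 had a median log2 fold change of -1.003 over the members, against -0.36 with it. The summed level of the 9 melanoma markers was 28982 CPM in replicate 1 and 16430 CPM in replicate 2 of these shHrs cultures, against 25350 and 15274 CPM in shCTL. In batch 2 it was 9049 and 8356 CPM with shHrs, against 18977 and 16509 CPM with shCTL, and the 9 markers had a median log2 fold change of -1.36. Of them 0 passed there with edgeR, where 5 were lower at an unadjusted p under 0.05, against 27.9% of all genes tested in either direction. DESeq2 called 4 of them lower and limma voom 1, against 1020 and 369 of all 12897 genes tested. The part of this shift in the results on mitosis genes was not tested.

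Whether the batches differed was tested as the effect in batch 2 minus the effect in batch 1. Ndc80 passed, with a difference of -3.23 (SE 0.34, adjusted p = 0.0285, edgeR quasi-likelihood), from a log2 fold change of -2.95 in batch 2 and 0.28 in batch 1. It was the only member to pass of 42, where 0.0233% of the 12897 genes tested had a lower effect in batch 2 and 0.132% a higher one. The difference was below 0 in 41 members, with a median of -1.92, against -0.04 over all genes tested. In edgeR 29 members had an unadjusted p under 0.05, against 20.3% of all genes tested. Limma voom called 1 member lower and DESeq2 22, against 3 and 480 of all genes tested. The next lowest adjusted p by edgeR were 0.0605 for Dlgap5, with a difference of -2.38, and 0.0667 for both Kif11, with -2.90, and Tpx2, with -2.11. Ndc80 no longer passed without any 1 of the 4 libraries of batch 2 (adjusted p from 0.1804 to 0.232) or without shCTL replicate 2 of batch 1 (0.1198), where 0 members were called. Over all runs with a library left out or another setting, the median difference of the members ran from -2.28 to -1.16.

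Within tumours the members varied little. The coefficient of variation between tumours of a group had a median of 11.6% over the 42 genes with shHrs and 11.7% with shCTL. Summed over the members, the shHrs tumours ran from 4231 to 5172 CPM, with a median of 5080 CPM, and the shCTL tumours from 4317 to 5637 CPM, with a median of 4946 CPM. The lowest tumour of each group was shHrs 4 and shCTL 5, with median log2 ratios to the mean of shCTL tumours of -0.28 and -0.20. The shHrs 4 tumour lay below every shCTL tumour in 24 of 42 genes, against 35.1% of all genes tested, and above every one in 5, against 30.9%. These are also the tumours with the highest macrophage and muscle sums and with the highest fibroblast sum, and the part of other cell types in the level of the members was not tested. Leaving out any 1 tumour left 0 members called in tumours.

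The effect of shHrs in tumours was then set against the mean of its effects in both culture batches, in a fit of all 18 libraries. That fit shares a single estimate of the spread per gene over cultures and tumours. The members' median log2 ratio had an SD of 0.44 between culture libraries of a group and 0.14 between tumours. Its p-values may therefore be too low for effects in cultures, where 0 of 42 members passed with both batches fitted together. The effect was higher in tumours for 29 of 42 members and lower for 0 by edgeR's quasi-likelihood test, against 2.12% and 1.49% of the 14458 genes tested, and 0 were lower with DESeq2 or limma voom. All 42 differences were above 0, with a median of 1.23, against 0.01 over all genes tested, or 0.11 when libraries were scaled by their totals. Ndc80 had the lowest p, with a difference of 1.41 (SE 0.18, adjusted p = 0.00195, edgeR). Its log2 fold changes were 0.10 in tumours, -2.95 in batch 2 and 0.28 in batch 1. The largest difference was that of Ccnb2, at 1.93 (SE 0.38, adjusted p = 0.0131, edgeR), and Bub3, at 0.08, had the smallest. The 13 genes that did not pass were Bub3, Cdc20, Cdk1, Kif22, Bub1b, Incenp, Ect2, Spc25, Kif20b, Spc24, Aurkb, Kif20a and Mki67. DESeq2 called 36 members higher and limma voom 28, against 724 and 276 of all genes tested. Adding replicate number as a block lowered edgeR's count, as given further below. Against the effect in batch 2 alone the median difference was 2.23, and against batch 1 alone it was 0.30, where 0 members passed with edgeR. Without tumour shCTL 1 or tumour shHrs 2 the count of 29 was 19, and it moved both down and up when a single culture was left out. Levels in tumours and cultures were not tested against each other, since no batch named in the labels holds both.

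Other genes of the cell cycle place the members. Of 75 further mitosis genes 37 fell and 0 rose in batch 2, with a median log2 fold change of -1.92 by edgeR. Over all 12897 genes tested there, 2.43% fell and 1.6% rose, with a median of -0.05. DESeq2 called 58 of the 75 lower and 1 higher, against 1020 and 968 of all genes tested. Limma voom called 36 and 1, against 369 and 276. In tumours 0 of the 75 passed with edgeR or limma voom, and 2 were lower with DESeq2, against 266 of all 13215 genes tested. In edgeR 4 were lower and 3 higher at an unadjusted p under 0.05, which 14.1% of all genes tested had. Those of the 75 with the lowest p in batch 2 were Kntc1 and Zwilch, subunits of the RZZ complex at kinetochores, and the spindle protein Spag5. Kntc1 had a batch 2 log2 fold change of -3.24 (SE 0.40, adjusted p = 0.0225, edgeR), Zwilch of -2.01 and Spag5 of -2.69. Of 15 APC/C subunits 0 passed in batch 2 with edgeR, DESeq2 or limma voom. For such short lists, here and below, 0 calls is near the share over all genes tested. An unadjusted p under 0.05 in edgeR was found for 0 of the 15, against 27.9% of all genes tested, and their median was 0.14. Of 43 DNA replication genes 0 passed with edgeR, where 17 were lower at an unadjusted p under 0.05, with a median of -1.01 and 40 of 43 below 0. DESeq2 called 14 of the 43 lower and limma voom 0, against 1020 and 369 of all 12897 genes tested. Of 8 G1 cyclins and CDKs 0 passed with edgeR, where 1 was lower at an unadjusted p under 0.05, with a median of -0.45, while DESeq2 called 1 lower and limma voom 0. The sum of the DNA replication genes was 2107 and 1952 CPM in shHrs cultures of batch 2, against 4613 and 2676 CPM in shCTL cultures.

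Among 24 regulators of cell cycle genes 3 fell in batch 2, namely Rbl1, Tfdp2 and Nfya, and 0 rose with edgeR. Over all genes tested there, 2.43% fell and 1.6% rose. Of the 24, 11 were lower and 2 higher at an unadjusted p under 0.05 in edgeR, against 27.9% of all genes in either direction. DESeq2 called 9 lower and limma voom 3, against 1020 and 369 of all 12897 genes tested, and neither called any of the 24 higher. Rbl1 encodes p107, Tfdp2 a dimer partner of E2F factors and Nfya a subunit of NF-Y, and their log2 fold changes were -1.89, -1.11 and -1.12, with adjusted p of 0.0362, 0.0429 and 0.049 by edgeR. Foxm1, the forkhead activator of mitosis genes, had 43.3 and 28.9 CPM with shHrs in batch 2, against 138 and 93.5 CPM with shCTL, and did not pass (log2 fold change -1.73, adjusted p = 0.0724, edgeR). Mybl2, which encodes B-Myb, had 12.01 and 9.35 CPM with shHrs, against 35.97 and 20.1 CPM with shCTL, with -1.44 on the log2 scale and an adjusted p of 0.165 by edgeR. The MuvB subunits Lin9 and Lin54, of which Lin54 binds the CHR, had log2 fold changes of -0.36 and -1.06, and E2f1 of -0.73, and none of these 3 passed with edgeR. Of 5 CDK inhibitors tested in batch 2, 0 passed with edgeR, DESeq2 or limma voom. Against 27.9% of all genes tested, 0 of the 5 had an unadjusted p under 0.05 in edgeR. Among them Cdkn1a, or p21, was at 593 and 759 CPM with shHrs, against 349 and 383 CPM with shCTL, and its log2 fold change of 0.83 did not pass (adjusted p = 0.269, edgeR). Cdkn1b, or p27, had -0.55 on that scale, and Cdkn2a had 0 counts in all 8 cultures and 1 to 8 counts per tumour. In tumours the log2 fold changes of Foxm1, Mybl2 and Cdkn1a were 0.08, -0.14 and 0.23, and none passed.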

How the data were processed

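The authors deposited whole-number counts per gene symbol, with no normalization, in a single table whose 18 columns were all used (0 left out). The submitters' processing notes name STAR 2.4.0h2, DESeq and build mm10. No counting tool, gene annotation or strand setting is given in the labels or headers.

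Statistics were computed from these counts in R 4.3.3 with edgeR 4.0.16. After filterByExpr (minimum count 10) and TMM scaling, shHrs was compared with shCTL by the two-sided quasi-likelihood F test. P-values were adjusted by Benjamini-Hochberg across every gene in the fit, and a gene passed at an adjusted p under 0.05. The first fit took the 8 cultures with batch as a term, another gave each batch its own effect and tested their difference, a further one took the 10 tumours alone, and the last took all 18 libraries for the difference between tumours and cultures. Log2 ratios of single libraries carry a pseudocount of 2. DESeq2 1.42.0, limma 3.58.1 (voom), other scalings, no filter and leaving out each library were tried. The fits were also run on simulated data. There each gene had the same spread in all libraries, so an unequal spread between cultures and tumours was not tried. Exon lengths and overlaps are from GENCODE on mm10, and promoter windows from RefSeq GRCm38.p6. Libraries of a group differed by more than sampling noise, so each was kept. With 17.6 M to 27.7 M counts per library (M, mega), counting error was small beside the spread between libraries.

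The members, the lists of other cell cycle genes and markers, the tests and the rule for named genes were chosen with earlier results of these data known. In each role the 2 members with the highest mean log2 CPM, and each member that passed in a difference between effects, were given library by library. Of genes that are not members, 8 regulators and up to 3 called genes per list were named by the same rule.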

Additional observations from a re-analysis of the deposited data

Results flagged for a closer look

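In tumours, 1 library stood apart from the other 4 of its group for several members, in that its gap to the nearest of them, as a share of the range of the group, was above Dixon's 95% critical value. In shHrs 4 the level was 72.6 CPM for Bub1b, 92.5 CPM for Cenpf, 83.4 CPM for Kif11, 48.3 CPM for Kif4, 130.3 CPM for Tpx2, 62.6 CPM for Aspm, 33.3 CPM for Dlgap5 and 107 CPM for Anln, each far below the other shHrs tumours. Mad2l1 was low in shHrs 3, at 96.3 CPM, and Kif22 was low in shHrs 5, at 57.5 CPM, and high in shCTL 3, at 79.004 CPM. These were 11 of 86 groups of tumours looked at (42 members and Hgs, each in both groups), where chance gives about 1 in 20 by this criterion. The 8 in shHrs 4 concern a single tumour, and members share it.

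The effect of shHrs differed between settings for Ndc80, at -3.23 on the log2 scale for batch 2 minus batch 1 (adjusted p = 0.0285, edgeR quasi-likelihood). It also differed between tumours and the mean of the cultures for 29 members, by edgeR's quasi-likelihood test of the difference, tumours minus cultures on the log2 scale. That fit shares a single spread over cultures and tumours, so its p-values may be too low, as said above. The smaller of these were 0.86 for Ckap2, 0.89 for Aurka, 0.93 for Mad2l1, 0.97 for Anln, 1.12 for Bub1, 1.13 for Dlgap5, 1.19 for Ube2c, 1.20 for Tpx2, 1.21 for Top2a and 1.23 for Birc5. The middle ones were 1.23 for Ttk, 1.23 for Cenpe, 1.25 for Ccnb1, 1.28 for Prc1, 1.34 for Kif4, 1.35 for Nuf2, 1.40 for Kif11, 1.41 for Ndc80, 1.42 for Kif2c and 1.43 for Cenpa. The larger ones were 1.46 for Plk1, 1.48 for Ccna2, 1.49 for Cenpf, 1.603 for Kif23, 1.63 for Ckap2l, 1.65 for Hmmr, 1.68 for Nusap1, 1.83 for Aspm and 1.93 for Ccnb2.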

How the results depend on the processing

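The count of members lower in batch 2, 27 of 42, was 27 with DESeq2-type size factors and with library totals, 26 with limma voom, 40 with DESeq2, 41 with no filter on low counts and 41 with the 4 libraries of that batch alone. Leaving out 1 library gave 0 to 41. With both batches together DESeq2 called 7 members lower, and leaving out 1 library gave 0 to 10, against 0; in batch 1 alone that range was 0 to 7. The difference between batches was called in 1 member, in 27 with no filter, in 22 with DESeq2 and in 0 to 26 with 1 library left out. In tumours every alternative run gave 0 members in either direction. The 29 members with a higher effect in tumours than in cultures were 27 with DESeq2-type size factors, 32 with library totals, 28 with no filter or with voom, 36 with DESeq2 and 8 to 40 with 1 library left out. Against the effect in batch 1 alone, an alternative chosen after seeing the data, the count was 0 and 5 differences were below 0, at -0.065 for Bub1, -0.060 for Cenpe, -0.038 for Dlgap5, -0.023 for Kif11 and -0.189 for Ndc80. The cause of these moves was not tested beyond the libraries named. For most runs with no filter, with a batch alone or with a library left out, the share over all genes tested is not given here. Those counts therefore cannot be read as particular to the members.

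Deviations of same-numbered libraries correlated at 0.18 in batch 1, 0.02 in batch 2 and from -0.60 to 0.47 in tumours. In tumours only replicate 3 matched its own number best. With 2 libraries a group, each culture batch gives a single correlation, which cannot decide whether replicate numbers pair the cultures. The main fits did not pair them. With the replicate block the members lower in batch 2 were 24 and those with a higher effect in tumours 17, and no other count changed by over 1.5 times. In the cultures 2 libraries a group limit every comparison, and the tumours had narrower standard errors (median 0.10, against 0.43 in batch 2).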

Other observations

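Among the 75 other mitosis genes, 31 had a higher effect of shHrs in tumours than in cultures and 1, Zwint, had a lower one, by edgeR's quasi-likelihood test. Over all 14458 genes tested, 2.12% had a higher effect and 1.49% a lower one. Zwint, a kinetochore protein that binds the RZZ complex, had a difference of -0.80, and its batch 2 log2 fold change of 1.18 was the highest of that list, whose median was -1.92. Cdkn3, a phosphatase of cyclin-dependent kinases, had a log2 fold change of -3.01 in batch 2 (SE 0.45, adjusted p = 0.0229, edgeR) and of 0.20 in tumours. Of the regulators of cell cycle genes, E2f7 and Rbl1 had a higher effect in tumours than in cultures, at 1.73 and 1.06. Of 6 CDK inhibitors tested there, 1, Cdkn2d, had a higher effect in tumours, at 0.73 (SE 0.17, adjusted p = 0.0255, edgeR quasi-likelihood). Its log2 fold changes were -0.88 in batch 1, -0.47 in batch 2 and 0.08 in tumours. Zwint and Cdkn3 were singled out after their values were seen.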
